A study of Mus musculus with 6 samples.

Results

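The genes described here regulate the growth of blood vessels: the growth factors Vegfa, Vegfb and Pgf, their receptors and co-receptors Flt1, Nrp1 and Nrp2, and the inhibitors Serpinf1 and Thbs1. They are 8 of the 19057 genes that the platform annotation names on these arrays. All probes that carry 1 of these 8 symbols and no other were taken, which gave 19 of 45281 probes. Serpinf1 and Thbs1 were included because they differed between macrophages of the infarcted and the intact heart in these same arrays, so their differences are given as descriptions without a test. RNA came from M2-like macrophages, defined by the surface markers CD206, F4/80 and CD11b, of C57BL/6 mice aged 10 weeks. Illumina bead arrays, glass arrays on which each probe is carried by many beads, measured 6 samples: 2 from hearts with a myocardial infarction (MI heart), 2 from the intact heart and 2 from the peritoneal cavity, the space around the abdominal organs. The sources used here do not give the time after infarction, a sham operation, the details of the sort or how many animals each array holds. Since nothing says that the 2 arrays of a group came from separate animals, p-values measure only the spread between these arrays, which may be technical.

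Vascular endothelial growth factor A, the product of Vegfa, is secreted under low oxygen and drives endothelial cells to divide and to sprout new vessels. It signals through receptor tyrosine kinases on endothelium, among them the product of Kdr, whereas the product of Flt1 binds it tightly and signals weakly. Neuropilins, the products of Nrp1 and Nrp2, present the factor to those kinases and are also receptors for semaphorins. Pigment epithelium-derived factor, the product of Serpinf1, and thrombospondin 1, the product of Thbs1, are secreted proteins that restrain vessel growth. In the infarcted heart, macrophages clear dead tissue and take part in scar formation and in the regrowth of vessels.

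The promoters of Vegfa and Serpinf1 are shown because these 2 genes lay on opposite sides between MI and intact heart; the other inhibitor, Thbs1, lay on the same side as Vegfa. Of the 8 genes, 7 had a RefSeq promoter entry of build GRCm38.p6, and Thbs1 had none. Vegfa and Pgf had 2 entries each, and the one with the most upstream start was used. Each run is the 250 bases before the annotated start, 5′ to 3′ on the gene's strand, with matches to 2 of the searched motifs in capitals. The Vegfa run is chr17:46032378-46032627 on the minus strand, and its capitals mark GC boxes (GGGCGG). The Serpinf1 run is chr11:75422624-75422873 on the minus strand, and its capitals mark the hypoxia response core (ACGTG).
Vegfa: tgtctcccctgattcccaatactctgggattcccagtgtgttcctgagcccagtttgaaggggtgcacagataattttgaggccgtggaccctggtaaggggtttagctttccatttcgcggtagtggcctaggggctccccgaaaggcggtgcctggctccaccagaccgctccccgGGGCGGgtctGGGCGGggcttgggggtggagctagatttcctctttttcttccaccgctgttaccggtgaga
Serpinf1: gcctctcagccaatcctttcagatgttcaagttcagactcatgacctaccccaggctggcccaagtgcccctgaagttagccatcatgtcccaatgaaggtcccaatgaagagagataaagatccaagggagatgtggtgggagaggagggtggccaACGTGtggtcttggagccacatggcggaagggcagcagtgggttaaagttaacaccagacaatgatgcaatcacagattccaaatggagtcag

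The search covered both strands for the hypoxia response core ACGTG, the GC box GGGCGG, the AP-1 motif TGANTCA and the heat shock element core GAANNTTC. In these 250 bases, Vegfa held 2 GC boxes and no ACGTG, and Serpinf1 held 1 ACGTG and no GC box. The other 5 promoters held between 1 (Nrp1) and 5 (Nrp2) GC boxes and no ACGTG. None of the 7 held TGANTCA or GAANNTTC. Among all 32851 RefSeq promoters of this length, 32.7% held a GC box, 16.6% ACGTG, 6.75% TGANTCA and 6.69% GAANNTTC. The base composition differed among the 7, with 51.6% G and C in Serpinf1, 59.2% in Vegfa and between 64.4% (Nrp1) and 76.4% (Vegfb) in the others, against a median of 52.4% over all promoters. A match is a description of these letters only. Bases outside the window, and the second entry of Vegfa and of Pgf, are not in the counts per gene. A missing match therefore says nothing about them.

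On each array 27.5% to 32.3% of probes passed the detection limit (detection p under 0.05, called above background here), with a median signal of 79.8 to 83.9 units, so signals near 80 carry no measured level. Of the 19 probes, 11 were above background on both arrays of at least 1 group and were tested: 3 of Vegfa, 1 of Serpinf1, 1 of Thbs1, 3 of Nrp1 and 3 of Nrp2. The other 8, with signals between 73.4 and 92.8 units, were not tested, and they include the probes of Vegfb, Pgf and Flt1. Of these 8, 6 were above background on no array. Below, a signal is the deposited intensity in arbitrary units, and a log2 level is that intensity after background correction and quantile normalization. A tested probe that entered through 1 bright group only, as all 3 Vegfa probes did through the MI heart and 1 Nrp2 probe through the intact heart, had to differ between groups to some degree, so counts, calls and p-values of such probes describe these probes and no more, and p-values with no filter are given beside them.

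Vegfa, the main inducer of vessel sprouting, was measured above background only in macrophages of the MI heart. Its brightest probe, ILMN_3121255, had signals of 253.9 and 210.7 units in the MI heart, 79.6 and 84.1 units in the intact heart and 77.2 and 80.7 units in the peritoneal cavity. Both MI heart arrays lay far above the other 4, none of which was above background for this probe. Its log2 level was 7.25 ± 0.18 in the MI heart and 4.26 ± 0.04 in the intact heart (SD, n = 2 each). By limma's moderated test with Benjamini-Hochberg adjustment over all 14817 probes tested, the difference was 2.99 ± 0.16 (SE, adjusted p = 4.52e-05). With no filter on dim probes the adjusted p was 0.00918. Because the intact heart was not well above background, the fold is a lower bound: at least 6.76-fold higher in the MI heart. Against the peritoneal cavity the level in the MI heart was at least 7.07-fold higher (limma, adjusted p = 6.18e-06, and 0.00105 with no filter). The intact heart and the peritoneal cavity could not be ordered, since neither was above background. In a bulk sample, fewer cells that express a gene and less RNA per cell cannot be told apart.

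A second Vegfa probe, ILMN_2484527, designed on another transcript record, had signals of 188.1 and 129.1 units in the MI heart, 76.0 and 81.2 units in the intact heart and 72.5 and 78.1 units in the peritoneal cavity. It showed the same order, with a wider gap between the MI heart arrays. It was at least 3.69-fold higher in the MI heart than in the intact heart (limma, adjusted p = 0.00167) and at least 3.86-fold higher than in the peritoneal cavity (adjusted p = 0.000348, and 0.0242 with no filter). The adjusted p of the comparison with the intact heart was 0.0505 with no filter on dim probes and between 0.000604 and 0.0505 over all alternatives. The third Vegfa probe, ILMN_3045723, had signals of 91.4 and 87.8 units in the MI heart, 78.1 and 85.0 units in the intact heart and 79.4 and 83.4 units in the peritoneal cavity. It was above background on both MI heart arrays and on no other, by a small margin, and its difference of 0.41 ± 0.16 between MI and intact heart did not pass the test (adjusted p = 0.158, and 0.171 with no filter). Against the peritoneal cavity its difference was 0.40 ± 0.16 (adjusted p = 0.131, and 0.133 with no filter).

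The other ligands of this family were not above background. Vegfb, a factor linked to cardiac muscle and its vessels, had signals of 74.8 to 86.6 units, and Pgf, placental growth factor, had signals of 78.1 to 84.0 units over the 6 arrays. A level of either gene, and a difference between groups, was therefore not detectable with these probes.

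**Figure D1:**
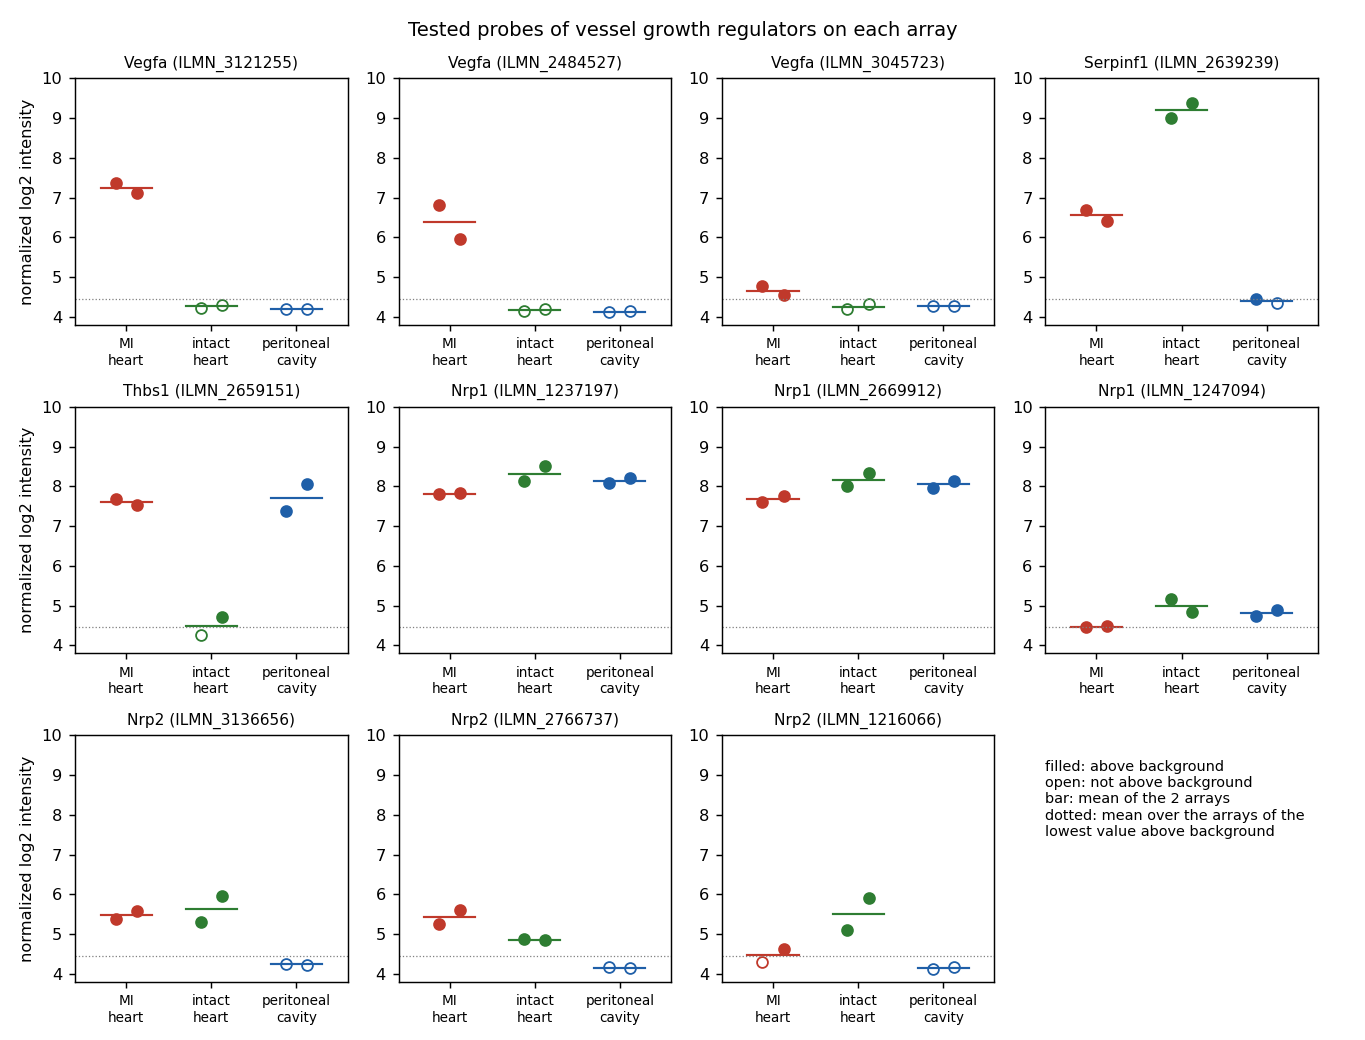
Normalized log2 intensity (vertical axis) of the 11 tested probes on each array, with MI heart in red, intact heart in green and peritoneal cavity in blue; filled points were above background, open points were not, bars are means of 2 arrays and the dotted line is the mean, over the arrays, of the lowest value above background. Vegfa is filled in the MI heart only, Serpinf1 is highest in the intact heart, and Thbs1 is low in the intact heart only.

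The receptor kinase Flt1 was close to background. Its probe ILMN_1227926 had signals of 92.8 and 82.1 units in the MI heart, 80.3 and 82.5 units in the intact heart and 76.7 and 80.5 units in the peritoneal cavity, and it was above background only on the first MI heart array. Its other probe was above background on no array. Among receptors that are no members, Kdr, the main signalling receptor for Vegfa, was above background on 1 intact heart and 1 peritoneal array, with signals of 83.3 to 86.1 units on all 6. Flt4, the receptor for the lymphatic factors of the family, was above background on 1 MI heart array.

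Nrp1 was above background in every group, and its 3 probes gave similar differences between groups. Its brightest probe, ILMN_1237197, had signals of 314.4 and 298.3 units in the MI heart, 274.7 and 437.3 units in the intact heart and 346.2 and 398.1 units in the peritoneal cavity. The log2 levels after normalization were 7.81 and 7.82 in the MI heart, 8.12 and 8.52 in the intact heart and 8.09 and 8.20 in the peritoneal cavity. In normalized values both MI heart arrays lay below the other 4, although the unnormalized signals of MI and intact heart overlapped. The difference of MI from intact heart was -0.51 ± 0.18 for this probe (limma, adjusted p = 0.116), -0.48 ± 0.18 for ILMN_2669912 (adjusted p = 0.134) and -0.52 ± 0.17 for ILMN_1247094 (adjusted p = 0.0969). None of the 3 passed the threshold of 0.05, and none did in MI heart minus peritoneal cavity, where the differences were between -0.36 and -0.33. Probe ILMN_1247094 lay close to background, with signals of 85.6 to 99.3 units. Its normalized log2 levels on the 2 intact heart arrays, 5.16 and 4.83, stood in the opposite order to those of the other probes. Its unnormalized signals there, 94.3 and 95.1 units, did not. The differences of intact heart from peritoneal cavity were between 0.12 and 0.18 and the groups overlapped in all 3 probes. With median scaling in place of quantile normalization they were between -0.21 and -0.000609, so no direction is given for them.

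Nrp2, the neuropilin associated with lymphatic vessels and veins, was measured in both heart groups and not above background in the peritoneal cavity. Probe ILMN_3136656 had signals of 107.2 and 114.8 units in the MI heart, 97.0 and 127.0 units in the intact heart and 79.1 and 82.4 units in the peritoneal cavity. The heart groups overlapped each other and lay above both peritoneal arrays. The intact heart was at least 2.30-fold higher than the peritoneal cavity (limma, adjusted p = 0.00198), and the MI heart at least 2.07-fold (adjusted p = 0.00466). The call of the MI heart was lost with no filter (adjusted p = 0.0674), without MI heart replicate 2 (0.0612) and without peritoneal cavity replicate 2 (0.0504), within a range of 0.000897 to 0.0674 over the alternatives.

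Probe ILMN_2766737 of Nrp2 had signals of 103.5 and 114.9 units in the MI heart, 90.0 and 95.2 units in the intact heart and 76.5 and 77.2 units in the peritoneal cavity. The groups did not overlap. The MI heart was at least 1.99-fold higher than the peritoneal cavity (limma, adjusted p = 0.000949) and the intact heart at least 1.35-fold (adjusted p = 0.0160), while the difference of MI from intact heart, 0.57 ± 0.17, did not pass the test (adjusted p = 0.0726). The call of the intact heart against the peritoneal cavity was lost without peritoneal cavity replicate 1 (0.0785), without replicate 2 (0.0904) and with an offset of 50 (0.0650), within a range of 0.0138 to 0.0904.

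Probe ILMN_1216066 of Nrp2, designed on a cDNA record, had signals of 82.2 and 89.1 units in the MI heart, 93.3 and 125.1 units in the intact heart and 73.1 and 80.0 units in the peritoneal cavity. Here the intact heart stood above both other groups, and the MI heart was above background on 1 array. The intact heart was at least 2.10-fold higher than the peritoneal cavity (limma, adjusted p = 0.00511), a call lost without peritoneal cavity replicate 1 (0.0533) and with no filter (0.0779), within a range of 0.000719 to 0.0779. The MI heart was at least 1.95-fold lower than the intact heart (adjusted p = 0.0387). That last call was lost under 11 of 13 alternatives, with adjusted p-values between 0.00802 and 0.240, among them the fits with no filter (0.238), without MI heart replicate 1 (0.240), without MI heart replicate 2 (0.134), without intact heart replicate 2 (0.0942) and without either peritoneal array (0.0904 each). The 3 probes thus gave no common order of MI and intact heart, with differences of -0.15, 0.57 and -1.04 on the log2 scale. The other 3 Nrp2 probes were above background on no array.

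Leaving out Serpinf1 and Thbs1, whose differences chose them, 9 probes of Vegfa, Nrp1 and Nrp2 were tested. In MI heart minus intact heart, 2 were called higher, both of Vegfa, 1 lower, of Nrp2, and 6 were not called, where 8.97% of all tested probes were called (4.43% higher and 4.54% lower). In intact heart minus peritoneal cavity, 3 were called higher, all of Nrp2, none lower and 6 were not called, where 24.5% of all probes were called (12.0% higher and 12.5% lower). In MI heart minus peritoneal cavity, 4 were called higher, 2 each of Vegfa and Nrp2, none lower and 5 were not called, where 17.0% of all probes were called (8.90% higher and 8.06% lower). The 2 groups did not overlap in 8, 5 and 9 of the 9 probes in these 3 comparisons, against 53.8%, 62.9% and 60.7% of all tested probes. In intact heart minus peritoneal cavity, 2 of the 5 were Vegfa probes with neither group above background, so their separation gives no order. In the other comparisons the counts include the Vegfa probes, which the filter kept only because they were bright in the MI heart. Probes of 1 gene are not independent, and each pair of comparisons shares the 2 arrays of 1 group.

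**Figure D2:**
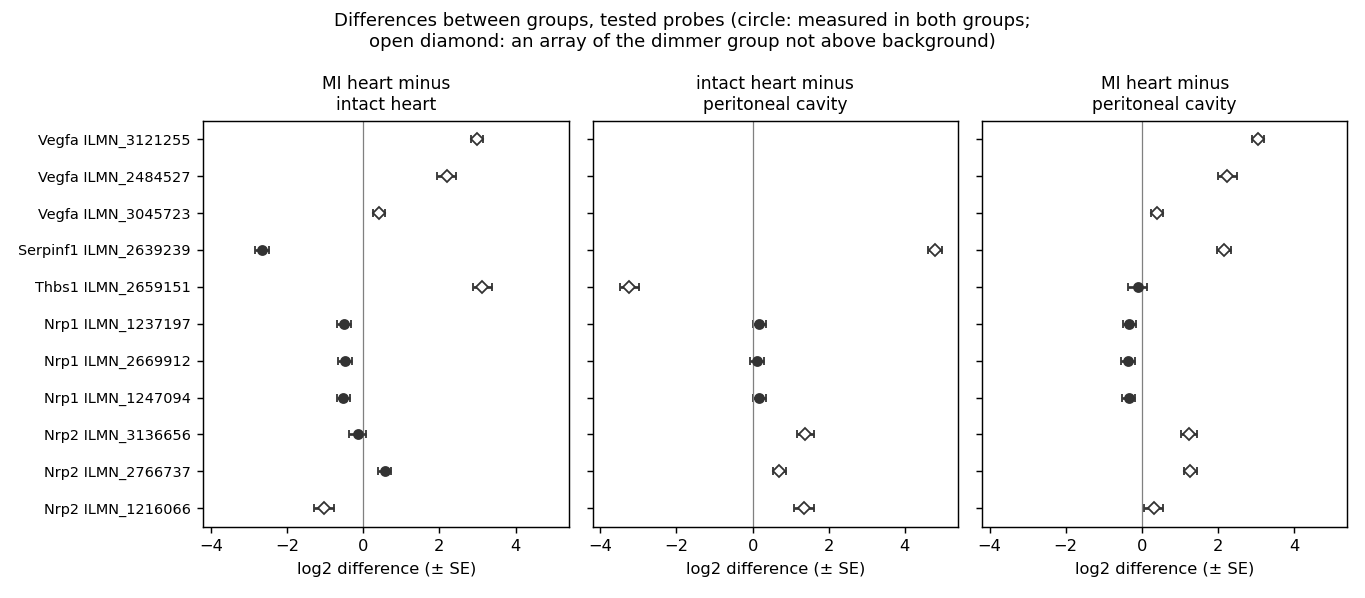
Log2 differences (horizontal axis, with SE) of the tested probes in the 3 comparisons; circles are differences measured in both groups, open diamonds are differences in which an array of the dimmer group was not above background, and probes with neither group above background are left out. Serpinf1 was lower and Vegfa and Thbs1 were higher in MI heart minus intact heart, and Thbs1 lay near 0 in MI heart minus peritoneal cavity.

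Serpinf1, which encodes pigment epithelium-derived factor, was highest in the intact heart. Its probe ILMN_2639239 had signals of 177.4 and 153.8 units in the MI heart, 473.5 and 778.9 units in the intact heart and 83.5 and 86.0 units in the peritoneal cavity. The 3 groups were separate on every array, in the order intact heart, MI heart, peritoneal cavity. Log2 levels were 6.55 ± 0.19 in the MI heart, 9.20 ± 0.27 in the intact heart and 4.40 ± 0.07 in the peritoneal cavity (SD, n = 2 each). The level in the MI heart was 6.28-fold below that in the intact heart, a log2 difference of -2.65 ± 0.19 (SE). In the peritoneal cavity it was above background on 1 of 2 arrays, so that the intact heart was at least 27.2-fold and the MI heart at least 4.34-fold higher. These differences share arrays with the one that chose the gene and have no test here. The other Serpinf1 probe, ILMN_1257789, had signals of 80.9 to 88.7 units, was above background on 1 intact heart and 1 peritoneal array and gave no order of the groups.

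Thbs1, which encodes thrombospondin 1, was low in the intact heart and overlapped between the MI heart and the peritoneal cavity. Its probe ILMN_2659151 had signals of 296.0 and 254.3 units in the MI heart, 80.1 and 92.8 units in the intact heart and 231.7 and 365.8 units in the peritoneal cavity. The intact heart arrays lay far below the other 4, and 1 of them was not above background. Log2 levels were 7.61 ± 0.11 in the MI heart, 4.48 ± 0.32 in the intact heart and 7.72 ± 0.48 in the peritoneal cavity (SD, n = 2 each). The MI heart was at least 7.96-fold higher than the intact heart, and the intact heart at least 8.59-fold lower than the peritoneal cavity. The MI heart and the peritoneal cavity overlapped, with a difference of -0.11 ± 0.25 (SE) that was 0.23 without peritoneal cavity replicate 2. As for Serpinf1, no test is given. Without background correction the difference of MI from intact heart was 1.60 for Thbs1 and -2.04 for Serpinf1, and with the authors' normalized values it was 1.61 and -2.04.

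The order of the groups thus differed among the 3 genes. Vegfa was above background in the MI heart alone, Serpinf1 was brightest in the intact heart and next in the MI heart, and Thbs1 was bright in the MI heart and the peritoneal cavity. Levels of different probes are not compared, since probes differ in brightness for reasons other than RNA amount.

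Over the 6 arrays, the genes with the most similar patterns were found by the root mean square difference of mean-centred log2 levels among the 8243 other named genes. For Vegfa they were Plac8 (0.0966), Inhba, which encodes the activin A subunit (0.130), and Nrg1, which encodes the growth factor neuregulin 1 (0.221). All 3 were bright on the 2 MI heart arrays and near the floor on the other 4. For Serpinf1 they were Hspa1b (0.285), Hsph1 (0.359) and Bag3 (0.444), the first 2 encoding heat shock chaperones and the third a partner of such chaperones. These 3 genes were highest on both intact heart arrays and lowest on both peritoneal arrays, as Serpinf1 was. For Thbs1 they were Itgb7, which encodes an integrin subunit (0.277), and the C-type lectin receptor genes Clec4d (0.356) and Clec4e (0.509). These were lowest on the intact heart arrays. With 6 arrays in 3 groups many genes can share such a shape, so the names are descriptions.

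**Figure D3:**
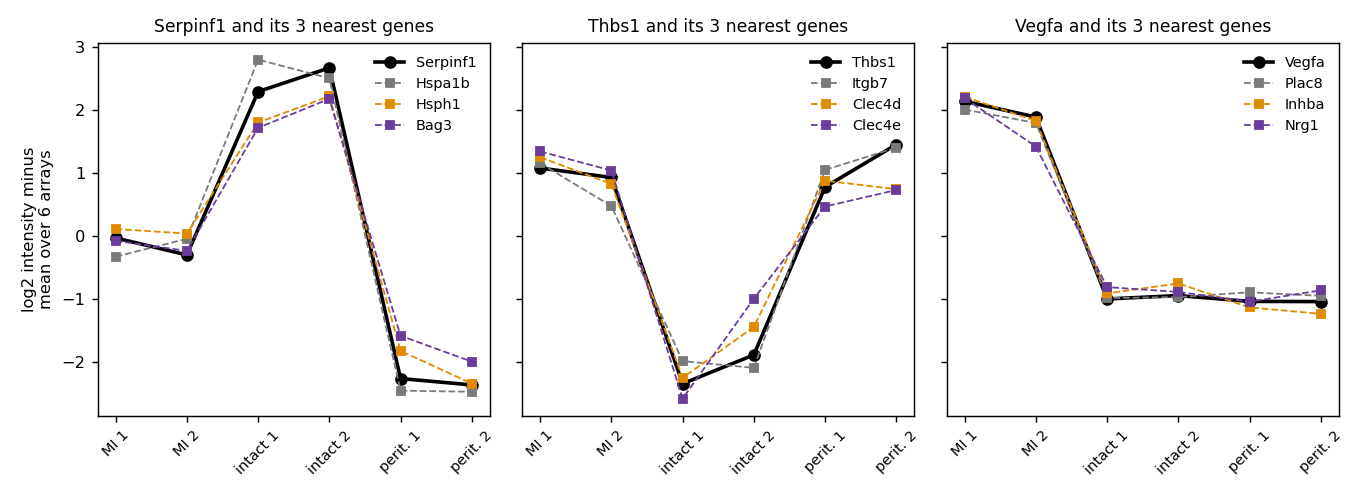
Log2 intensity minus the mean over the 6 arrays (vertical axis) for Serpinf1, Thbs1 and Vegfa (black) and the 3 genes nearest to each, array by array from MI heart to peritoneal cavity. Each of the 3 genes and its neighbours has a different peak: the intact heart for Serpinf1, the MI heart and peritoneal cavity for Thbs1, and the MI heart for Vegfa.

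Among other promoters of vessel growth, Mmp14 stood out as higher and Ccn1 as lower in the MI heart. In MI heart minus intact heart, 2 of 19 tested genes of this list rose, 1 fell and 16 were not called, with a median difference of 0.18 against 0.011 over all tested probes. For scale, 4.85% of named genes were called higher and 4.49% lower in this comparison. Mmp14, a membrane-bound matrix protease, had signals of 251.4 and 210.4 units in the MI heart and 90.3 and 89.3 units in the intact heart (log2 difference 2.54 ± 0.18, limma, adjusted p = 0.000167). Ccn1, a secreted matrix-associated protein that acts on endothelial cells, had 116.6 and 103.1 units in the MI heart and 195.1 and 248.9 units in the intact heart (-2.05 ± 0.18, adjusted p = 0.000489). Both genes had groups that did not overlap. Plaur, the urokinase receptor, was also called higher (1.03 ± 0.24, adjusted p = 0.0310), but the call was lost under 11 of 15 alternatives. The losses include the fits without either MI heart array, without intact heart replicate 1, where the difference was 0.64, and without either peritoneal array.

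The same list had 9 of 19 genes higher, none lower and 10 not called in intact heart minus peritoneal cavity, with a median of 0.50, where 12.1% of named genes were called higher and 13.7% lower. In MI heart minus peritoneal cavity 12 rose, none fell and 7 were not called, with a median of 1.03, where 9.75% of named genes were called higher and 9.15% lower. With detection required on all arrays, the counts of genes that rose were 4 and 5 in these 2 comparisons. Genes of the list that missed this limit on any array left that fit and could not be counted, so its base is smaller than 19. Plau, the protease urokinase, was 13.2-fold higher in the intact heart than in the peritoneal cavity (3.72 ± 0.23, limma, adjusted p = 1.07e-05). Il1b, an inflammatory cytokine, was at least 13.7-fold higher in the MI heart than in the peritoneal cavity (adjusted p = 6.10e-06).

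Among other endogenous inhibitors of vessel growth, 3 of 12 tested genes rose in MI heart minus intact heart, none fell and 9 were not called, with a median of 0.038. In this comparison 4.85% of named genes were called higher and 4.49% lower. Timp1, an inhibitor of matrix proteases, was at least 2.55-fold higher in the MI heart (limma, adjusted p = 0.00245), with signals of 138.2 and 121.6 units against 84.6 and 91.8 units in the intact heart. Its probe was above background on both arrays of the MI heart only, so this call describes the probe and no more. The call was kept with no filter. Sparc, a matrix-binding protein, differed by 1.32 ± 0.16 (adjusted p = 0.00215). Cxcl9, a chemokine induced by interferon, differed by 1.96 ± 0.38 (adjusted p = 0.0158), with signals of 320.3 and 151.1 units in the MI heart against 94.2 and 101.8 units in the intact heart. Its difference was 1.22 without MI heart replicate 1 and 2.69 without MI heart replicate 2, and its call was lost under 8 of 14 alternatives, including the fits without intact heart replicate 1 and without either peritoneal array. Against the peritoneal cavity, 3 of 12 were higher and none lower in the intact heart (median 0.35), while in the MI heart 5 rose and 2 fell (median 0.32). Of all named genes, 12.1% were called higher and 13.7% lower in the intact heart, and 9.75% and 9.15% in the MI heart. With detection required on all arrays, the count of inhibitors that rose was 0 in each of the 3 comparisons. The genes that rose had missed this limit on some array, so they left that fit and could not be counted. Cxcl10, another chemokine induced by interferon, was at least 15.3-fold higher in the MI heart and at least 9.74-fold higher in the intact heart than in the peritoneal cavity (adjusted p = 3.92e-05 and 8.25e-05). Pf4, platelet factor 4, was lower in the MI heart than in the peritoneal cavity (-1.16 ± 0.24, adjusted p = 0.0102), a call lost with no filter and in the fits that left out MI heart replicate 2 or peritoneal cavity replicate 1. The count of inhibitors that fell in the MI heart was 0 in these fits and 1 without MI heart replicate 1 or without peritoneal cavity replicate 2.

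**Figure D4:**
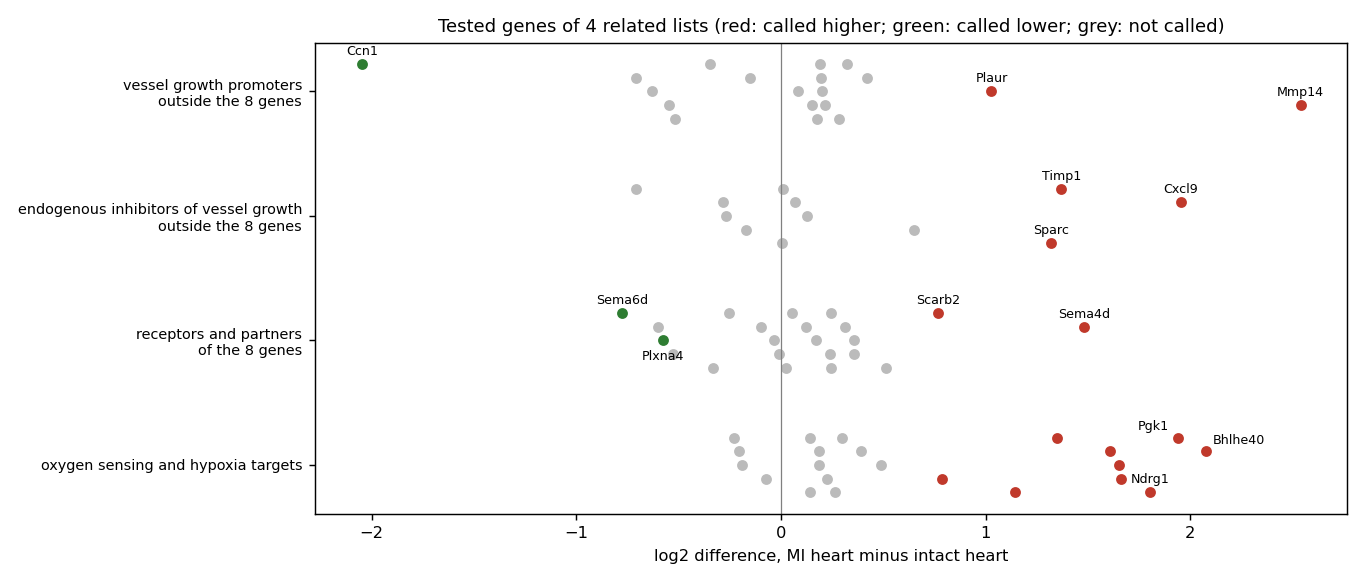
Log2 differences, MI heart minus intact heart (horizontal axis), of the tested genes of 4 related lists; red points were called higher, green points lower and grey points were not called, and the 3 largest called differences per list and direction are named. Most points lie near 0, and the list of oxygen sensing and hypoxia targets has 9 points called higher and none lower. Of all named genes, 4.85% were called higher and 4.49% lower.

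Receptors and partners of these genes were mixed. In MI heart minus intact heart, 2 of 22 tested genes rose, 2 fell and 18 were not called, with a median of 0.089. In this comparison 4.85% of named genes were called higher and 4.49% lower. Sema4d, which encodes a semaphorin, was at least 2.64-fold higher in the MI heart (limma, adjusted p = 0.00141), and Scarb2, a lysosomal membrane protein, differed by 0.77 ± 0.15 (adjusted p = 0.0183). Sema4d was above background on both arrays of the MI heart only, so its call describes the probe and no more. That call was kept with no filter. The call of Scarb2 was lost without MI heart replicate 1 (0.0893) and without MI heart replicate 2 (0.139). Sema6d, another semaphorin (-0.78 ± 0.19, adjusted p = 0.0410), and Plxna4, a neuropilin-associated plexin (-0.57 ± 0.15, adjusted p = 0.0462), were called lower, at least 1.57-fold and 1.42-fold. Both were above background on both arrays of the intact heart only. With no filter the call of Sema6d was lost (limma, adjusted p = 0.164) and that of Plxna4 was kept. Each of these 2 calls was lost under 11 of 14 alternatives, including those without either MI heart array, without intact heart replicate 1 and without either peritoneal array. Of the receptors through which thrombospondin 1 acts, Cd47 was measured on every array and not called (0.36 ± 0.21, adjusted p = 0.343), and Cd36 was above background on 1 array of each group and not tested. Among the plexins that signal with neuropilins, Plxna1 differed by 0.24 ± 0.15 (adjusted p = 0.368). Plxnd1 differed by -0.60 ± 0.28 (adjusted p = 0.226), and by -1.04 without intact heart replicate 2, where it was called (adjusted p = 0.0325).

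Against the peritoneal cavity, 6 of the 22 receptors and partners were higher and 6 lower in the intact heart (median 0.16), while in the MI heart 6 rose and 3 fell (median 0.11). Of all named genes, 12.1% were called higher and 13.7% lower in the intact heart, and 9.75% and 9.15% in the MI heart. Sdc4, the heparan sulfate proteoglycan syndecan 4, was higher than in the peritoneal cavity by 2.96 ± 0.20 in the MI heart and by 2.99 ± 0.20 in the intact heart (limma, adjusted p = 2.01e-05 and 1.51e-05). Itga6, a laminin-binding integrin subunit, was at least 3.52-fold lower in the MI heart and at least 4.47-fold lower in intact heart (adjusted p = 0.00309 and 0.00125). Its probe was above background on both arrays of the peritoneal cavity only, so these calls describe the probe and no more. The call in the intact heart was kept with no filter. With no filter the call of Itga6 in the MI heart was lost (0.0851, in a range of 0.000807 to 0.0851). With peritoneal cavity replicate 2 left out, 4 rose and 3 fell in the intact heart, and without MI heart replicate 1 only 1 fell in the MI heart. With no filter, 2 fell in the intact heart and none fell in the MI heart. Both comparisons use the same peritoneal arrays.

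Of genes of oxygen sensing and hypoxia targets, the group to which Vegfa belongs by its known regulation, Bhlhe40, Pgk1, Ndrg1 and Hif1a were among those higher in the MI heart. In MI heart minus intact heart 9 of 22 tested genes rose, none fell and 13 were not called, with a median of 0.34. Of all named genes, 4.85% were called higher and 4.49% lower in this comparison. The count of genes that rose was 3 without MI heart replicate 1, 6 without MI heart replicate 2, 3 with no filter and 5 with detection required on all arrays. Where detection was required on all arrays, genes that missed this limit could not be counted, so the base is smaller than 22. Bhlhe40, a transcriptional repressor, was at least 4.04-fold higher (limma, adjusted p = 0.00166), with signals of 191.6 and 186.9 units in the MI heart against 83.3 and 102.4 units in the intact heart. Pgk1, a glycolytic enzyme, had 380.1 and 248.4 units in the MI heart against 100.8 and 141.2 units in the intact heart (1.94 ± 0.28, adjusted p = 0.00487). The groups did not overlap for either gene, and the call of Pgk1 was lost with no filter (0.0933) and without MI heart replicate 1 (0.0601). Ndrg1, a stress-responsive gene, differed by 1.80 ± 0.36 (adjusted p = 0.0192), by 1.16 without intact heart replicate 1 and by 2.44 without intact heart replicate 2. Its call was lost under 6 of 14 alternatives, including those without either MI heart array and without either peritoneal array.

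Hif1a, the oxygen-regulated transcription factor subunit, had signals of 132.3 and 136.4 units in the MI heart against 90.8 and 96.0 units in the intact heart (1.15 ± 0.15, limma, adjusted p = 0.00296). Epas1, its paralog, was not called in that comparison (0.23 ± 0.26, adjusted p = 0.644), and without MI heart replicate 2 its difference was -0.039. Against the peritoneal cavity, 1 gene of this list rose and 5 fell in the intact heart (median -0.25), and 6 rose and 4 fell in the MI heart (median 0.25). Of all named genes, 12.1% were called higher and 13.7% lower in the intact heart, and 9.75% and 9.15% in the MI heart. With no filter, none rose and 3 fell in the intact heart, and 2 rose and none fell in the MI heart. The count that fell was 3 in the intact heart and 0 in the MI heart without peritoneal cavity replicate 1, and in the MI heart it was 2 without MI heart replicate 1 and 1 without MI heart replicate 2. The count that rose in the intact heart was 3 without intact heart replicate 1 and 2 without peritoneal cavity replicate 2. Slc2a1, the glucose transporter GLUT1, was higher than in the peritoneal cavity by 3.14 ± 0.26 in the MI heart and by 1.53 ± 0.26 in the intact heart (adjusted p = 7.33e-05 and 0.00324). P4ha2, a subunit of collagen prolyl hydroxylase, differed from the peritoneal cavity by -1.71 ± 0.31 in the MI heart and by -1.97 ± 0.31 in the intact heart (adjusted p = 0.00527 and 0.00193). With no filter the calls of P4ha2 (0.110 in the MI heart, 0.0576 in the intact heart) and of Slc2a1 in the intact heart (0.0643) were lost. That of P4ha2 in the MI heart was also lost without peritoneal cavity replicate 1 (0.0695). Over the alternatives these adjusted p-values ranged from 0.000456 to 0.110 and 0.000144 to 0.0576 for P4ha2 and from 0.000474 to 0.0643 for Slc2a1.

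Markers of other cell types are given because Serpinf1, Thbs1 and Vegfa are also expressed by cells other than macrophages, such as fibroblasts, platelets, endothelium and muscle. The 12 macrophage markers on the array were above background on both arrays of every group, with summed linear levels of 6073 and 7009 in the MI heart, 6697 and 6428 in the intact heart and 7491 and 6822 in the peritoneal cavity. Of 18 fibroblast markers, 7 were above background on both arrays in the MI heart, 2 in the intact heart and 2 in the peritoneal cavity. Their sums were 185 and 181 in the MI heart, 119 and 77.9 in the intact heart and 346 and 226 in the peritoneal cavity. By sums, fibroblast markers were lowest in the intact heart. By counts, 7 of the 18 were above background on no array in the MI heart, 10 in the intact heart and 16 in the peritoneal cavity, where the sums rest on the other 2, Pdgfra and Pi16. Of 8 tested fibroblast markers, 3 rose, none fell and 5 were not called in MI heart minus intact heart. In this comparison 4.85% of named genes were called higher and 4.49% lower. Named after their values were seen, the 3 markers were the collagen genes Col1a1 and Col5a1 and the proteoglycan gene Bgn. These 3 markers, and the count and sums of the list, thus moved with Vegfa and Thbs1 between MI and intact heart. The sums, though not the count, were highest in the peritoneal cavity, where Vegfa was not above background. The part of fibroblasts in the Vegfa, Serpinf1 and Thbs1 results was not tested.

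Of 16 cardiomyocyte markers, 6 were above background on both arrays in the MI heart, 9 in the intact heart and 3 in the peritoneal cavity, and their sums were 213 and 220 in the MI heart, 265 and 337 in the intact heart and 136 and 147 in the peritoneal cavity. Of 11 smooth muscle and pericyte markers, 3 were above background on both arrays in the MI heart, 5 in the intact heart and 2 in the peritoneal cavity. They summed to 89.1 and 89.3 in the MI heart, 136 and 103 in the intact heart and 85.2 and 71.2 in the peritoneal cavity. Both sums were highest in the intact heart, as Serpinf1 was. In MI heart minus intact heart, none of 10 tested cardiomyocyte markers rose, 2 fell and 8 were not called. None of 5 tested smooth muscle and pericyte markers was called. Of all named genes, 4.85% were called higher and 4.49% lower in this comparison. The part of these cells in the Serpinf1 result was not tested. Endothelial markers above background on both arrays numbered 2 of 16 in the MI heart and none in the other groups, with sums of 72.3 and 62.9 in the MI heart, 62.0 and 47.0 in the intact heart and 51.6 and 42.9 in the peritoneal cavity. The 2 were Cdh5 and Ly6c1, named after their values were seen, and neither was called in MI heart minus intact heart. The endothelial count moved with Vegfa, and the part of endothelium in the Vegfa result was not tested.

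Of 11 platelet markers, 2 were above background on both arrays in the MI heart, 2 in the intact heart and 1 in the peritoneal cavity, and 8 of the 11 were above background on no array in the MI heart, 7 in the intact heart and 8 in the peritoneal cavity. Named after their values were seen, the markers above background were Ppbp and Pf4 in both heart groups and Pf4 in the peritoneal cavity. Neither was called in MI heart minus intact heart, Ppbp was called higher in both heart groups than in the peritoneal cavity, and Pf4 lower in the MI heart than there. Itga2b, Gp1bb, Gp5, Itgb3 and Treml1 were above background on no array. Platelet sums were 171 and 117 in the MI heart, 215 and 204 in the intact heart and 326 and 211 in the peritoneal cavity, lowest in the MI heart. Of 12 neutrophil markers, 2 were above background on both arrays in the MI heart, 2 in the intact heart and 1 in the peritoneal cavity. They summed to 202 and 91.1 in the MI heart, 56.9 and 67.1 in the intact heart and 102 and 95.8 in the peritoneal cavity, and they moved with Thbs1 in being lowest in the intact heart. Of 8 mesothelial markers, 1 was above background on both arrays in the intact heart and none in the other groups, and they summed to 28.1 and 21.2 in the MI heart, 34.3 and 34.8 in the intact heart and 24.1 and 19.7 in the peritoneal cavity. The part of platelets, neutrophils and mesothelium in these results was not tested.

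**Figure D5:**
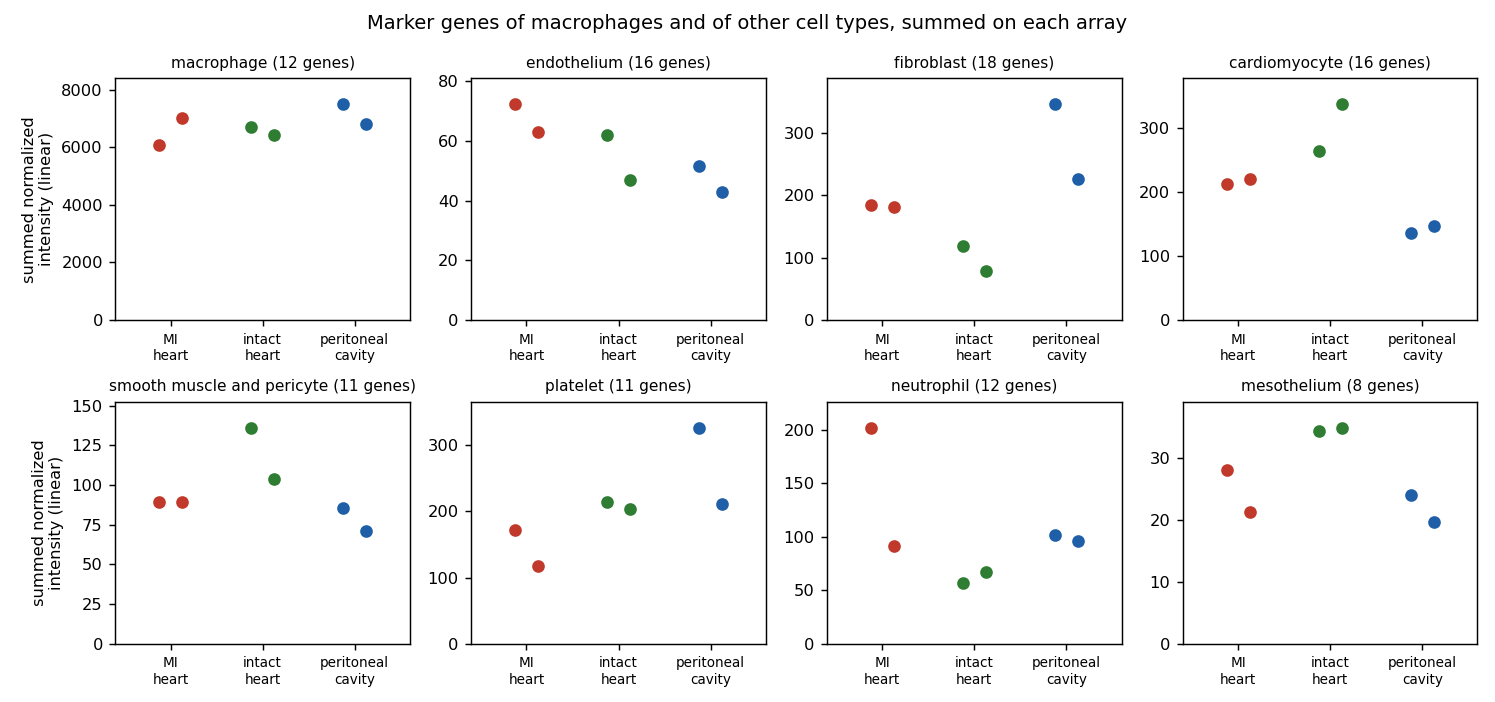
Summed normalized intensity on a linear scale (vertical axis, each panel from 0 with its own range) of the markers of macrophages and of 7 other cell types on each array, with MI heart in red, intact heart in green and peritoneal cavity in blue. Macrophage sums are close on all arrays, cardiomyocyte and smooth muscle sums are highest in the intact heart, and neutrophil sums are lowest there.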

How the data were processed

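Per the file headers, the deposited non-normalized table lists 45281 probes, each with an intensity and a detection p-value on every one of the 6 arrays, not normalized between arrays. Per the labels' protocols, Trizol-extracted RNA was treated with DNase I and turned into biotinylated cRNA with an Ambion kit. The series matrix, used as an alternative, holds intensity values that the authors had brought to one distribution (column medians 81.5053 to 81.5146, linear scale, not centred). By rank order its MI heart and peritoneal columns match the other replicate of their group, so the numbers of the non-normalized table are used. The sources used here do not give the scanner software or how detection p-values were made. The number of columns of values left unused was 0.

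With limma 3.58.1 in R 4.3.3, neqc corrected background (controls inferred from detection p, offset 16), quantile-normalized the arrays and gave log2 values. A probe was kept if both arrays of any group had a detection p under 0.05, which left 14817. Each probe was fitted singly over all 6 arrays (lmFit and eBayes, 3 residual and 5.86 prior degrees of freedom), tested two-sided and adjusted by Benjamini-Hochberg over the 14817 probes, with a threshold of 0.05. The script was tested on simulated data. The number of arrays limits the precision. A fold with "at least" sets the brighter group's mean against, per array of the dimmer group, the higher of the probe's own value and the lowest value above background; it is no confidence limit.

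In the platform annotation 34885 probes had 1 symbol, 10378 had none and 18 had several. A probe with both Nrp2 and another symbol was left out. Listed genes are counted by their brightest probe, and markers by their summed linear level. Named are all probes of the 8 genes, per list the 3 largest called differences per direction in MI heart minus intact heart and the largest in the other comparisons, 8 set receptors and regulators (Kdr, Flt4, Cd36, Cd47, Plxna1, Plxnd1, Hif1a, Epas1), and the 3 nearest patterns. The genes and lists were chosen with earlier results of these data known. Same-numbered arrays of different groups had deviations correlated by 0.08, 0.16 and 0.17. Alternatives changed background correction, offset, scaling, filter, source of values, probes per gene, arrays in the fit and a replicate block.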

Additional observations from a re-analysis of the deposited data

How the results depend on the processing

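Of 30 differences of single probes of the 8 genes, 15 kept their direction and their side of the threshold under every alternative run, out of 15 alternatives at most. Most of these were never called. The called ones were Vegfa ILMN_3121255 against each other group, Vegfa ILMN_2484527 and Nrp2 ILMN_2766737 in MI heart minus peritoneal cavity, and Nrp2 ILMN_3136656 in intact heart minus peritoneal cavity. The filter kept both Vegfa probes only through the MI heart. Every Serpinf1 and Thbs1 difference turned or moved beyond the spread between arrays under some alternative, so none of them is among the 15. The difference of the brightest Vegfa probe from the intact heart was 1.42 to 3.12; since it entered the filtered set only through the MI heart, its calls there are no sign of stability, and with no filter its adjusted p was 0.00918. Serpinf1 in MI heart minus intact heart lay between -2.84 and -2.04 and Thbs1 between 1.60 and 3.35. Directions that turned were all of uncalled or overlapping values. With median scaling they were 0.064 for Nrp2 ILMN_3136656 in MI heart minus intact heart, and -0.14, -0.21 and -0.000609 for the 3 Nrp1 probes in intact heart minus peritoneal cavity. With single arrays left out, that Nrp2 probe ranged from -0.47 to 0.17, Nrp1 ILMN_1237197 from -0.021 to 0.37 and ILMN_2669912 from -0.053 to 0.29, each turned without intact heart replicate 2. Thbs1 in MI heart minus peritoneal cavity ranged from -0.45 to 0.23, turned without peritoneal cavity replicate 2, and Epas1 in MI heart minus intact heart from -0.039 to 0.49, turned without MI heart replicate 2. The cause was not tested.

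Probes called in MI heart minus intact heart numbered 1329, and 859 with no background correction, 846 with the authors' normalized values, 498 with no filter, 704 with detection p under 0.01 on all arrays and 768 with only the 2 groups compared. Leaving out single arrays gave 315 (without MI heart replicate 1) to 1313, with 345 without MI heart replicate 2 and 768 without either peritoneal array. For MI heart minus peritoneal cavity (2512) the values were 1583 with no filter, 1282 with the strict detection and 1231 to 2953 with single arrays left out, the lowest without MI heart replicate 2. For intact heart minus peritoneal cavity (3626) they were 1882 with the strict detection and 1921 to 3237 with single arrays left out, the lowest without peritoneal cavity replicate 1.

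Median scaling moved the median difference of all probes to 0.12 in MI heart minus intact heart, -0.18 in intact heart minus peritoneal cavity and -0.067 in MI heart minus peritoneal cavity. Under it 79.7% of calls were higher in MI heart minus intact heart, against 49.4% in the fit reported, and 28.2% in intact heart minus peritoneal cavity, against 48.9%. With replicate number as a block, 1738 probes were called in MI heart minus intact heart, 4141 in intact heart minus peritoneal cavity and 2924 in MI heart minus peritoneal cavity. Groups of 2 arrays and signals near background limit what could be detected for Vegfb, Pgf and Flt1.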
